A study of Arabidopsis thaliana with 6 samples.

Results

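The xyloglucan endotransglucosylase/hydrolase (XTH) genes were examined in root RNA of Arabidopsis thaliana. They were taken as every probe set that the platform annotation assigns to 1 gene with the symbol XTH and a number. This rule gave 9 probe sets of 13513 with 1 gene: XTH16, XTH18, XTH19, XTH20, XTH21, XTH26, XTH29, XTH32 and XTH33. A list of the family by locus holds 33 genes, and 1 more of them, XTH27, was measured under the symbol EXGT-A3. The others were not analysed here.

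Xyloglucan is the main hemicellulose of the primary wall in most flowering plants outside the grasses, and it coats and connects cellulose microfibrils. XTH enzymes cut a xyloglucan chain and join the cut end to another chain, which lets the wall be rebuilt while the cell expands, and some members hydrolyse xyloglucan instead. In roots the XTH genes are known for expression in separate zones and cell files, among them the elongation zone, the vascular tissue and the root hairs, which are tubular outgrowths of epidermal cells that grow at their tip.

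The roots came from 35S::RSL4 plants, rsl4-1 plants and Col-0 plants, with 2 samples of each, and each sample was hybridised to its own Affymetrix ATH1 array. RSL4, a transcription factor of the basic helix-loop-helix family, is known to promote the growth of root hairs. In 35S::RSL4 it is driven by the 35S promoter of cauliflower mosaic virus, which is active in most cell types of the plant, and rsl4-1 is a mutant allele. All 3 genotypes have the Col-0 background. The labels enter a T-DNA knock-out for 35S::RSL4 as well as for rsl4-1, so the samples are called here by the genotype in their titles. They name no independent transgenic lines, nor is separate growth of a genotype's 2 samples stated, so every p-value rests on a spread that may be technical. Seedlings grew on vertical plates of Murashige and Skoog medium at pH 5.7 with 1% sucrose, in constant light at 25 °C, and were taken at growth stage 3.2. The growth text gives 4 days of cold treatment of the seeds for all genotypes, but another passage gives 2 days for Col-0 and 4 days for 35S::RSL4 and rsl4-1.

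Signals are the authors' MAS5 signals in linear scaled units, and the trimmed mean was 100.01 on every array. Because a probe set's brightness depends on its probes, no XTH gene's signal was set against that of another. Log2 signals correlated at 0.982 to 0.986 between arrays of the same genotype and at 0.957 to 0.972 between arrays of different genotypes (across probe sets, which are no replicates). No probe set was matched to RSL4 itself, and the labels stand unchecked by its level. Listed genes were matched only to probe sets assigned to 1 gene, so a gene without a match may still be on the array. Of 8 root markers 1 was matched, PYK10, a beta-glucosidase abundant in roots. Its signal was 4155 to 4314 in 35S::RSL4, 4448 to 5079.6 in rsl4-1 and 3744 to 4474 in Col-0. Of 7 shoot markers, RCA (Rubisco activase) and LHCB4.1 (a light-harvesting protein) were matched, and both were above the filter on every array.

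Testing required a signal above the 40th percentile of the same array on 2 or more arrays, and 14170 probe sets met this. Of the 9 XTH probe sets 7 passed, and each of these did so on all 6 arrays. XTH29 was below the percentile on all of them, at 0.223 and 1.33 in 35S::RSL4, 1.62 and 0.631 in rsl4-1, and 2.17 and 0.428 in Col-0. XTH16 exceeded it on 1 array of 35S::RSL4, with signals of 23.3 and 17.9 in 35S::RSL4, 16.6 and 20.4 in rsl4-1, and 15 and 18.5 in Col-0. Neither was tested, and no fold is given for them. A call is a limma adjusted p, two-sided and with Benjamini-Hochberg adjustment over all 14170 probe sets, below 0.05. Of the 7 tested members 5 were called in at least 1 of the 3 comparisons. The share of all probe sets called in at least 1 of them was not counted, and shares for each comparison are given below.

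**Figure D1:**
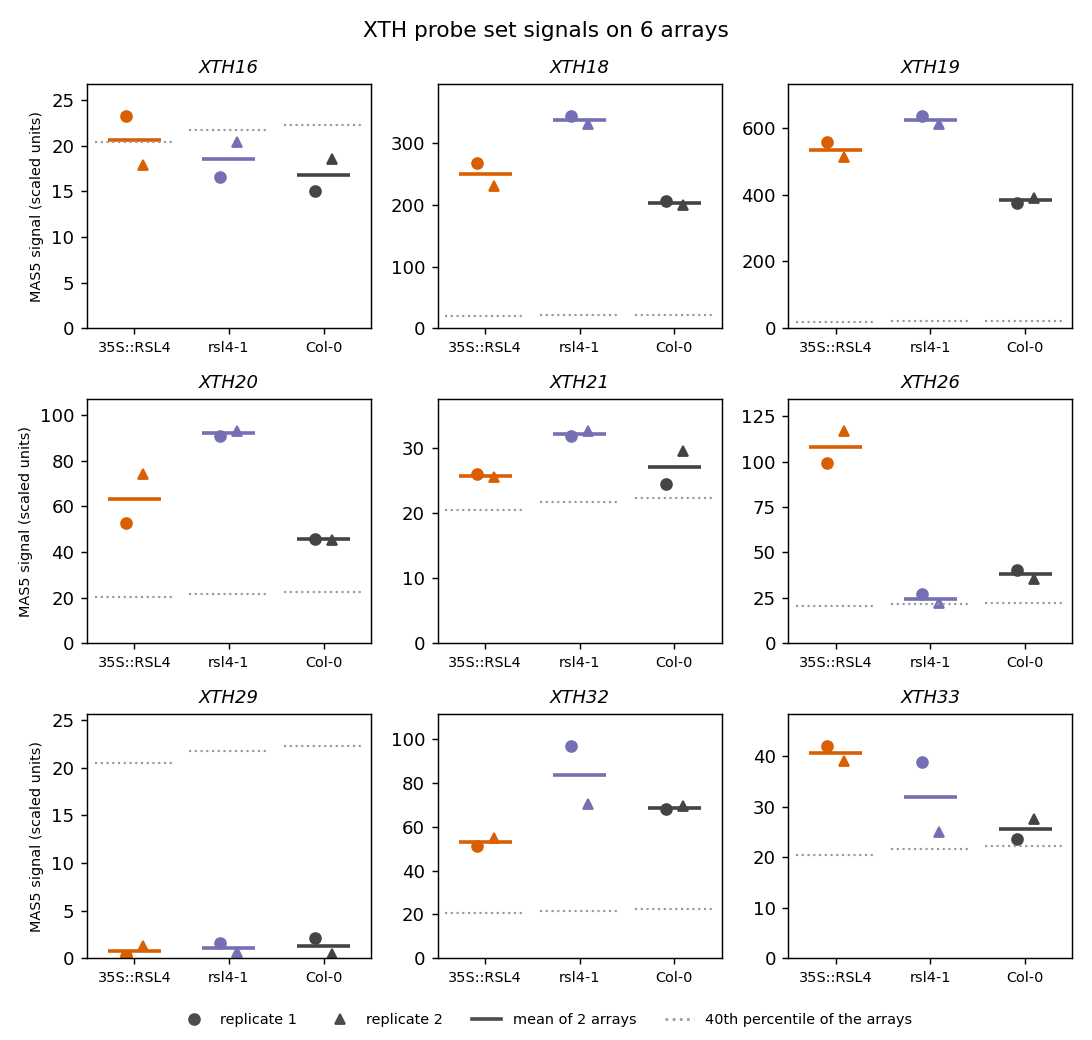
MAS5 signal (vertical axis, linear scaled units, from 0) of each of the 9 XTH probe sets on the 6 arrays. Circles and triangles are replicates 1 and 2 of each genotype, bars are means of 2 arrays, and dotted lines mark the mean 40th percentile of each genotype's arrays. XTH26 was high in 35S::RSL4 (99.4 and 117), XTH18, XTH19 and XTH20 were high in rsl4-1, and XTH29 stayed below the percentile throughout.

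XTH26 had more signal in 35S::RSL4 than in both other genotypes, and its lowest signals in rsl4-1. This gene is known for expression in root hairs, where its product has endotransglucosylase activity. Its signal was 99.4 and 117 in 35S::RSL4, 26.9 and 22 in rsl4-1, and 40.6 and 35.4 in Col-0. The 3 genotypes did not overlap, and the rsl4-1 arrays lay near the 40th percentile, which was 21.8 and 21.7 on them. In RNA of whole roots, fewer cells of a type, such as hair cells, and less RNA per cell cannot be told apart.

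Between 35S::RSL4 and rsl4-1, XTH26 was 4.44-fold higher in 35S::RSL4. The fold in this comparison uses no Col-0 array, but the filter, SE and adjusted p do, as all arrays were fitted together. Its mean was 108 ± 12.6 in 35S::RSL4 and 24.4 ± 3.48 in rsl4-1 (SD, n = 2 each), a log2 change of 2.15 (SE 0.19, limma adjusted p = 1.2e-06). Against Col-0, with a mean of 38 ± 3.67, it rose 2.85-fold in 35S::RSL4 (log2 change 1.51, SE 0.19, limma adjusted p = 0.00018), and only 20 of the 14170 tested probe sets had a larger log2 rise there. In rsl4-1 against Col-0 the log2 change was -0.64 with a 95% interval from -1.05 to -0.24, which did not pass the test (limma adjusted p = 0.078). In the order of the levels, 35S::RSL4 stood above Col-0 by a difference that passed the test, and rsl4-1 below Col-0 by one that did not. Both calls held under all 13 alternatives, with adjusted p up to 0.013 against Col-0 and up to 0.00041 against rsl4-1.

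XTH18, XTH19 and XTH20 showed another order, with the highest signals in rsl4-1 and the lowest in Col-0. They belong to a closely related group of XTH genes expressed mainly in roots. XTH18 is known from the elongating part of the root, XTH19 from dividing and elongating cells among others, and XTH20 from the vascular tissue of the mature root.

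XTH18 had signals of 268 and 231 in 35S::RSL4, 345 and 332 in rsl4-1, and 206 and 199.9 in Col-0. All 3 genotypes were apart. In rsl4-1 it rose 1.67-fold (95% interval 1.37 to 2.03), to 338 ± 9.37 in rsl4-1 against 203 ± 4.38 in Col-0 (log2 change 0.74, limma adjusted p = 0.0041). Without rsl4-1 replicate 1 or Col-0 replicate 2 this call ended (adjusted p = 0.057 and 0.063), with log2 changes of 0.71 and 0.72. In 35S::RSL4, at 249.7 ± 26.3, XTH18 did not pass against Col-0 (log2 change 0.29, limma adjusted p = 0.2) or against rsl4-1 (log2 change -0.44, limma adjusted p = 0.067).

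XTH19 had signals of 558 and 511 in 35S::RSL4, 636 and 609.7 in rsl4-1, and 375 and 390.2 in Col-0. Here too no array of one genotype lay within the range of another. It rose 1.63-fold in rsl4-1 (log2 change 0.70, 95% interval 0.44 to 0.96, limma adjusted p = 0.0027), a call that held under all 13 alternatives with adjusted p up to 0.049. In 35S::RSL4 it rose 1.40-fold over Col-0, to 534 ± 33.3 in 35S::RSL4 against 382 ± 10.9 in Col-0 (limma adjusted p = 0.029). The call in 35S::RSL4 ended when either array of 35S::RSL4 or of Col-0 was left out (adjusted p = 0.061 to 0.22), with no filter (0.055) and with no intensity trend in the variance model (0.09). Between 35S::RSL4 and rsl4-1 the log2 change of XTH19 was -0.22 (95% interval -0.48 to 0.04, limma adjusted p = 0.35).

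XTH20 had signals of 90.9 and 93.1 in rsl4-1, against 45.7 and 45.4 in Col-0. The arrays of each of these genotypes agreed closely, at ratios of 1.02 and 1.01 between replicates. XTH20 rose 2.02-fold in rsl4-1 (log2 change 1.01, SE 0.18, limma adjusted p = 0.0033), and without rsl4-1 replicate 2 the call ended (log2 change 1.00, adjusted p = 0.05). The 35S::RSL4 arrays read 52.7 and 74, a replicate ratio of 1.40, so the place of this genotype between the others depended on the array. Its log2 change against Col-0 was 0.46 (limma adjusted p = 0.14), and it was 0.70 or 0.21 with 35S::RSL4 replicate 1 or 2 left out. Against rsl4-1 it was -0.56 (limma adjusted p = 0.089), and without 35S::RSL4 replicate 2 it was -0.80 and passed (adjusted p = 0.037).

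**Figure D2:**
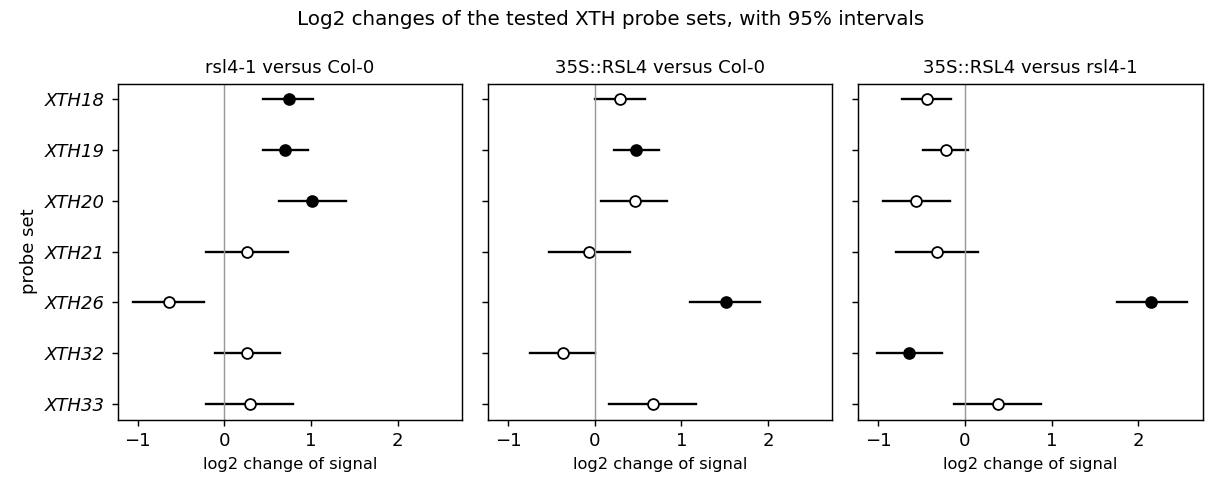
Log2 change of signal (horizontal axis) with its 95% interval from the limma fit for the 7 tested XTH probe sets in the 3 comparisons. Filled circles passed the threshold of 0.05 on the adjusted p and open circles did not. XTH26 stood at 1.51 and 2.15 in the comparisons of 35S::RSL4, and XTH18, XTH19 and XTH20 at 0.74, 0.70 and 1.01 in rsl4-1 against Col-0.

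XTH32, XTH33 and XTH21 differed less or varied more between replicates. XTH32, of the subgroup whose characterised member hydrolyses xyloglucan, had signals of 51.2 and 54.8 in 35S::RSL4, against 96.8 and 70.1 in rsl4-1 and 67.9 and 69.4 in Col-0. The 35S::RSL4 arrays were below all others, while the rsl4-1 arrays differed from each other by a ratio of 1.38. It fell 1.56-fold in 35S::RSL4 relative to rsl4-1, to 53 ± 2.58 in 35S::RSL4 against 83.5 ± 18.9 in rsl4-1 (log2 change -0.64, limma adjusted p = 0.047). That call ended under 11 of 13 alternatives, and without rsl4-1 replicate 1 the log2 change was -0.40 (adjusted p = 0.34). Against Col-0 the log2 change of XTH32 was -0.37 in 35S::RSL4 (limma adjusted p = 0.23) and 0.26 in rsl4-1 (limma adjusted p = 0.52).

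XTH33, which carries a predicted membrane anchor, had signals of 42.1 and 39.1 in 35S::RSL4, 38.9 and 25 in rsl4-1, and 23.6 and 27.6 in Col-0. The rsl4-1 arrays overlapped the range of Col-0. In 35S::RSL4 against Col-0 its log2 change was 0.67 (95% interval 0.17 to 1.17, limma adjusted p = 0.1). In rsl4-1 it was 0.29 (limma adjusted p = 0.61), and -0.03 without rsl4-1 replicate 1. XTH21, linked to growth of the primary root, had signals of 26.1 and 25.5 in 35S::RSL4, 31.8 and 32.7 in rsl4-1, and 24.5 and 29.6 in Col-0. Its log2 changes were -0.06 in 35S::RSL4 against Col-0, 0.26 in rsl4-1 against Col-0 and -0.32 in 35S::RSL4 against rsl4-1 (limma adjusted p = 0.9, 0.63 and 0.47). The 95% interval of the 35S::RSL4 change against Col-0 ran from -0.53 to 0.41, so changes of XTH21 within that range, either way, were not excluded.

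XTH27, the family member listed as EXGT-A3 and known from the vascular tissue of leaves, had signals of 209.9 and 240.1 in 35S::RSL4, 229.8 and 224 in rsl4-1, and 199 and 222 in Col-0. The 35S::RSL4 range overlapped both others. Its log2 changes lay between -0.01 and 0.11 in the 3 comparisons, with adjusted p from 0.73 to 0.97, and the 95% interval for rsl4-1 against Col-0 ran from -0.18 to 0.40.

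Counted over the tested members, 3 of 7 were higher in rsl4-1 than in Col-0 and none was lower by limma, where 3.81% of all tested probe sets were called (1.67% higher and 2.15% lower). At an unadjusted p under 0.05, 4 members differed in this comparison, of which XTH26 was lower. In 35S::RSL4 against Col-0, 2 of 7 were higher and none was lower by limma, against 6.27% of all probe sets called (3.39% higher and 2.88% lower). At an unadjusted p under 0.05, 5 members were higher there and none was lower. Between 35S::RSL4 and rsl4-1, 1 was higher and 1 lower, against 5.46% of all called (3.19% higher and 2.27% lower), and at an unadjusted p under 0.05, 4 members differed, of which 3 were lower. The share of all tested probe sets at an unadjusted p under 0.05 was not counted. The member counts at that threshold therefore have no reference here, and the percentages above hold for the adjusted p only. The comparisons with Col-0 share the Col-0 arrays. The median log2 change of the 7 members was 0.29 in rsl4-1 and 0.46 in 35S::RSL4 against Col-0, beside medians of -0.03 and -0.06 over all tested probe sets. Between 35S::RSL4 and rsl4-1 it was -0.32, beside -0.04 over all. Arrays of the compared genotypes did not overlap for 6, 6 and 7 of the 7 members in these comparisons, and for 48%, 53.4% and 47.2% of all tested probe sets, so that feature by itself is common here. Since the XTH genes were chosen with earlier results of these data known, the counts of members are no test of the family.

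XTH18, XTH19 and XTH20, of which only XTH19 was called higher than Col-0 in both lines, were measured against Col-0 arrays that also differed in a shoot marker. LHCB4.1 had signals of 129 and 121 in 35S::RSL4, 137 and 119.8 in rsl4-1, and 219 and 188 in Col-0. It fell in rsl4-1 (log2 change -0.67, limma adjusted p = 0.016) and in 35S::RSL4 (log2 change -0.70, limma adjusted p = 0.0093). The rsl4-1 call ended when any array of rsl4-1 or Col-0 was left out (adjusted p = 0.054 to 0.21) and with no intensity trend (0.057), and the 35S::RSL4 call ended without 35S::RSL4 replicate 2 (0.07) and without Col-0 replicate 1 (0.16). RCA did not pass in either line (log2 changes -0.23 in 35S::RSL4 and -0.22 in rsl4-1, limma adjusted p = 0.39 and 0.54). The summed signal of the 2 matched shoot markers was 251 to 257 in 35S::RSL4, 258 on both rsl4-1 arrays and 324 to 387 in Col-0. Its part in the levels of XTH18, XTH19 and XTH20 was not tested, and the cold treatment that one passage of the labels gives differently for Col-0 cannot be told apart from genotype in the comparisons with Col-0.

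XTH26 was set beside wall genes of root hairs. Of the 10 genes listed, 2 were matched to a one-gene probe set, the expansin genes EXPA7 and EXPA18, which encode wall-loosening proteins of root hairs. They are also the 2 matched of 6 root hair markers. EXPA7 had signals of 275 and 301 in 35S::RSL4, 72.8 and 59.8 in rsl4-1, and 99.4 and 114 in Col-0. EXPA18 had signals of 436 and 465 in 35S::RSL4, 183 and 160.2 in rsl4-1, and 277 and 244 in Col-0. Both had the genotype order of XTH26, and in neither did the genotypes overlap.

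The difference between 35S::RSL4 and rsl4-1 was 4.37-fold for EXPA7 and 2.63-fold for EXPA18 (limma adjusted p = 1.3e-07 and 4e-06), beside 4.44-fold for XTH26. Unlike that of XTH26, their falls in rsl4-1 against Col-0 passed the test (log2 changes -0.69 and -0.60, limma adjusted p = 0.017 and 0.02), although the log2 changes were of similar size. The EXPA7 call ended without rsl4-1 replicate 2 or either Col-0 array (adjusted p = 0.055 to 0.21), and that of EXPA18 when any array of rsl4-1 or Col-0 was left out (adjusted p = 0.055 to 0.22). With no intensity trend both calls ended (adjusted p = 0.059 for EXPA7 and 0.077 for EXPA18).

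**Figure D3:**
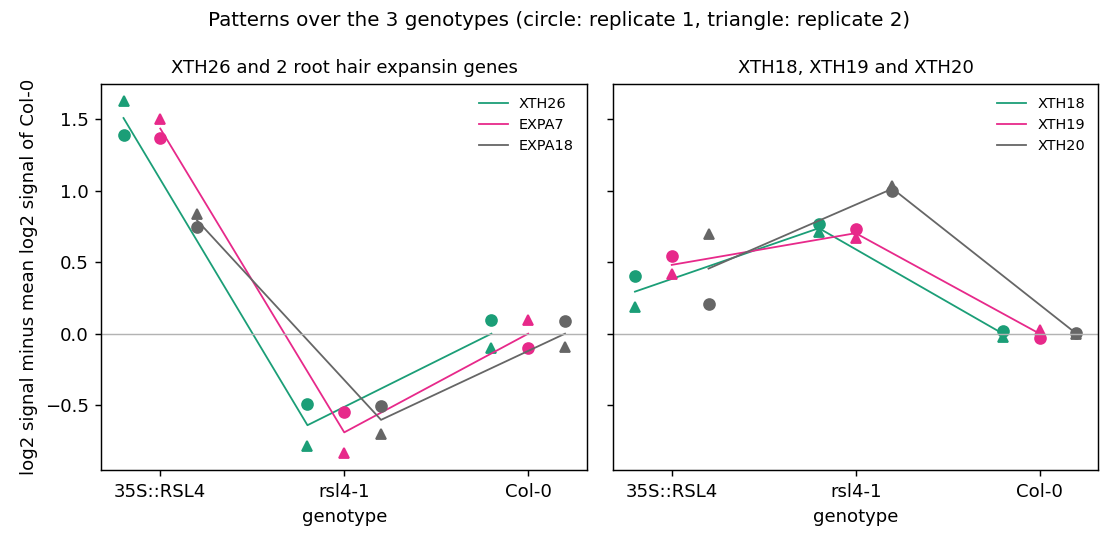
Log2 signal minus the mean log2 signal of Col-0 (vertical axis) on each array, by genotype, for XTH26 with EXPA7 and EXPA18 (left) and for XTH18, XTH19 and XTH20 (right). Circles and triangles are replicates 1 and 2, and lines join genotype means. The left genes were highest in 35S::RSL4 and lowest in rsl4-1, while the right genes had their highest values in rsl4-1.

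Likeness of pattern was measured as the root mean square difference of the 6 log2 signals after each gene was centred on its own mean, over 7662 other one-gene probe sets. Among these, EXPA7 was closest to XTH26, at 0.12, where the median probe set was at 0.95. AT4G33730 followed at 0.18 and AT5G64120, which encodes peroxidase 71, at 0.25, and EXPA18 ranked 19 at 0.35. XTH18 and XTH19 differed from each other by 0.10 and from XTH20 by 0.23 and 0.24, while each of the 3 differed from XTH26 by 0.98 or more. The median probe set was at 0.36 from XTH18 and from XTH19 and at 0.48 from XTH20.

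The genes closest to XTH18 were AT5G55560, AT4G22212 and AT5G20790, at 0.060, 0.067 and 0.075. Those closest to XTH19 were AT5G20790 at 0.038, AT5G41940 at 0.065 and EXLB1, an expansin-like gene, at 0.076. Closest to XTH20 were AT1G10380 at 0.050, AT2G41480, which encodes peroxidase 25, at 0.086, and GSTF4, a glutathione transferase gene, at 0.10. For example, the log2 changes of EXLB1 were 0.61 in rsl4-1 and 0.36 in 35S::RSL4 against Col-0, beside 0.70 and 0.48 for XTH19. These values describe likeness over 6 arrays that share their 3 genotypes.

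XTH18 and XTH19 are adjacent annotated loci on chromosome 4, with XTH24, not analysed here, on the other side of XTH18. Both probe sets are of the type designed for a single transcript, but cross-hybridisation between these related genes was not tested. At 3 annotated loci beyond XTH19 lies AT4G30320, whose signal ran the other way in rsl4-1. Its log2 change was -1.78 in rsl4-1 against Col-0 and 2.77 in 35S::RSL4 against rsl4-1 (limma adjusted p = 0.00021 and 5.6e-07), while XTH19 had log2 changes of 0.70 and -0.22 there. In 35S::RSL4 against Col-0 its log2 change was 0.99 (limma adjusted p = 0.018), a call that ended under 5 of the alternatives, with adjusted p of 0.21 without 35S::RSL4 replicate 2. XTH26 lies on the same chromosome between AT4G28840 and CKL4. AT4G30320 was singled out among neighbours within 10 annotated loci on each side of the 7 tested members. These held 33 tested places, where a locus near more than 1 member counts again. In rsl4-1 against Col-0, 5 were called, beside 3.81% of all tested probe sets. In 35S::RSL4, 4 were called against Col-0 and 3 against rsl4-1, beside 6.27% and 5.46%. XTH18, XTH19 and AT4G30320 are among these calls.

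Genes that make the xyloglucan backbone were compared as well. The list of xyloglucan synthesis genes holds 15, of which 5 were matched to a one-gene probe set. Of these, 4 passed the filter: CSLC4, CSLC5, CSLC6 and CSLC8, glucan synthases of the Golgi. CSLC8 did so on only 2 arrays. CSLC12 exceeded the percentile on 1 array and was not tested. Its signals were 17.7 and 24.2 in 35S::RSL4, 8.48 and 7.6 in rsl4-1, and 19.8 and 18.6 in Col-0. None of the 4 tested genes was called by limma in any of the 3 comparisons, where 3.81% to 6.27% of all tested probe sets were called. None of the 4 had an unadjusted p under 0.05. Their median log2 change was -0.24 in 35S::RSL4 and -0.06 in rsl4-1 against Col-0, beside -0.06 and -0.03 over all probe sets. CSLC4, the main xyloglucan synthase gene of the plant, had signals of 122 and 194 in 35S::RSL4, 127 and 203 in rsl4-1, and 167 and 215 in Col-0. Its genotypes overlapped and its replicates differed by ratios of 1.29 to 1.60, and the 95% interval of its log2 change in 35S::RSL4 against Col-0 ran from -0.78 to 0.18. None of 3 listed genes that trim xyloglucan side chains was matched to a one-gene probe set, so these genes were not examined.

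**Figure D4:**
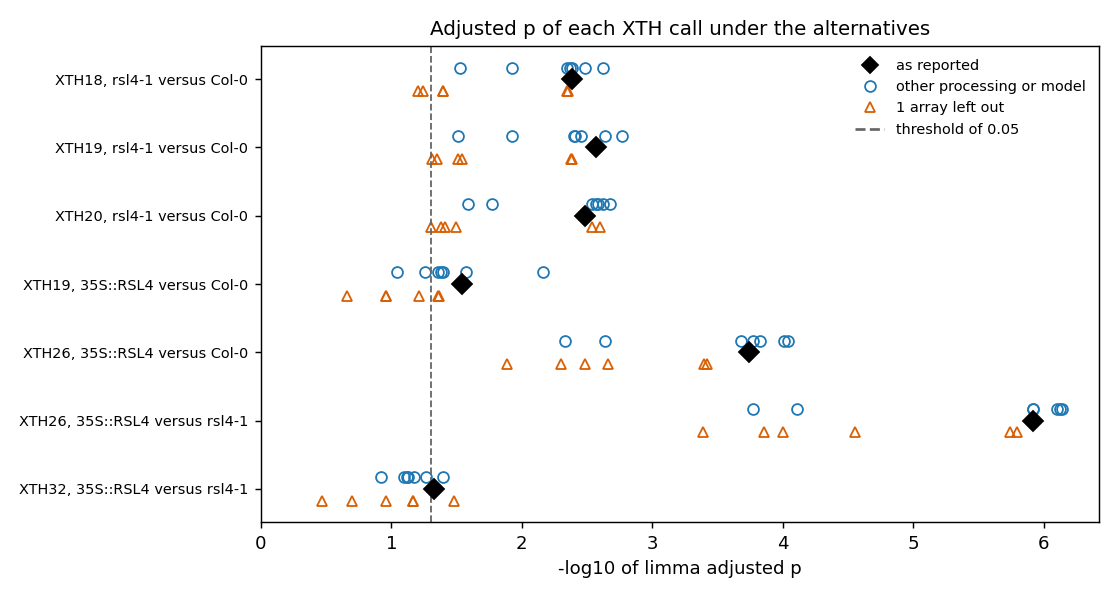
Adjusted p of the 7 XTH calls, as -log10 (horizontal axis), as reported (diamonds), under other processing or models (circles) and with 1 array left out (triangles). The dashed line is the threshold of 0.05. The 2 calls of XTH26 and the rsl4-1 call of XTH19 stayed to the right of the line throughout, and most points of XTH32 lay to its left.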

How the data were processed

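Root RNA was measured on 6 ATH1 arrays. The deposited intensity values are linear MAS5 signals, which the authors obtained, per the submitters' processing notes, using MAS5 and GCOS. Tool versions are not given in the sources used here. Their scaling was kept. After removal of 64 controls from 22810 probe sets, 14170 of 22746 passed the filter. The platform annotation gave 1 gene for 13513, several for 503 and none for 8730, and 13436 were matched to RefSeq genes of TAIR10.1 for loci, names and neighbours. limma 3.58.1 under R 4.3.3 was used on log2 signals of all 6 arrays together (eBayes with intensity trend, 3 residual and 13.2 prior degrees of freedom), without a block. The number of arrays limits the precision: log2 changes had a median SE of 0.166, and an exact permutation test of 2 against 2 arrays cannot go below p = 0.333. The fit of 35S::RSL4 versus Col-0 was tested on simulated data with 14170 probe sets, 200 of them changed. It found 97% of changes of 2-fold and 100% of those of 4-fold, while 4.83% of its calls were unchanged probe sets. The simulated noise was normal, with a spread set only by the intensity trend. Spreads that differ between probe sets of like intensity were not simulated, so these rates may be too favourable for the real arrays.

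The XTH genes and lists were chosen with earlier results of these data known. The genes named were all XTH members, family members under another symbol, up to 4 called members per comparison of each wall list, and the 3 tested one-gene probe sets outside the XTH genes most like each of XTH18, XTH19, XTH20 and XTH26. CSLC4 and AT4G30320 were singled out after their values were seen. Same-numbered arrays had deviations from their genotype means that correlated at -0.189 (rsl4-1 and Col-0), 0.118 (35S::RSL4 and Col-0) and -0.0849 (35S::RSL4 and rsl4-1), so the numbers were not taken to pair the samples.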

Additional observations from a re-analysis of the deposited data

How the results depend on the processing

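The 13 alternatives per result were quantile normalization, median centring, no filter, an offset at the 20th percentile before log2, no intensity trend, a fit of only the 2 genotypes compared, a replicate block, and omission of each array in turn. After an omission, the remaining array of that genotype was taken to vary as those of the other genotypes do. Of the refitted log2 changes of XTH members, 248 kept their direction and side of the threshold, 20 lost a call, 1 gained one and 4 changed sign. The XTH members higher in 35S::RSL4 than in Col-0 numbered 1 with no filter and with no intensity trend, and 1 to 2 with an array left out. The member lower in 35S::RSL4 than in rsl4-1, XTH32, was not called (a count of 0) with quantile normalization, median centring, no filter, no intensity trend, the replicate block or only the 2 genotypes. With an array left out the count was 0 to 1: XTH32 was called without rsl4-1 replicate 2 (adjusted p = 0.033), XTH20 in its place without 35S::RSL4 replicate 2 (0.037), and neither under the other omissions. XTH members higher in rsl4-1 than in Col-0 numbered 2 to 3 with an array left out.

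Signs of small changes that were not called turned as follows: XTH21 in 35S::RSL4 against Col-0 was 0.07 with quantile normalization, 0.05 with median centring and 0.08 without Col-0 replicate 2, with -0.20 to 0.08 over all omitted arrays. XTH33 in rsl4-1 against Col-0 was -0.03 without rsl4-1 replicate 1, in a range up to 0.61. EXGT-A3 was -0.00 in 35S::RSL4 against Col-0 without 35S::RSL4 replicate 2, in a range up to 0.19, and against rsl4-1 it was 0.05 with median centring, 0.00 without rsl4-1 replicate 1 and 0.08 without 35S::RSL4 replicate 1, in a range down to -0.11. The cause was not tested.

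Over all probe sets, counts higher and lower in rsl4-1 against Col-0 were 236 and 304. They were 107 and 158 with no filter, and 136 were higher with no intensity trend. In 35S::RSL4 against Col-0 they were 480 and 408, against 230 and 174 with no filter, and 282 were higher with no intensity trend. Between 35S::RSL4 and rsl4-1 they were 452 and 322, against 301 and 181 with no filter. Median centring, which shifted 35S::RSL4 against Col-0 by 0.11 on the log2 scale, gave 889 and 233 there, or 79.2% of calls higher against 54.1%, with 70.7% against 58.4% relative to rsl4-1 and 55.3% against 43.7% in rsl4-1 relative to Col-0. Leaving out an array gave 60 to 236 higher and 117 to 287 lower in rsl4-1 against Col-0, 126 to 423 and 86 to 339 in 35S::RSL4 against Col-0, and 247 to 392 and 102 to 261 between the lines. Samples share only a replicate number: with the replicate block XTH32 had adjusted p = 0.054 between 35S::RSL4 and rsl4-1, no other XTH call changed, and the 3 comparisons gave 230 and 290, 444 and 358, and 429 and 308 calls. A block with crossed replicate numbers for rsl4-1 and Col-0, which was chosen after seeing the data, gave 476 higher and 479 lower, among them 3 XTH members, all higher. The dim signals of XTH21, XTH26 in rsl4-1 and XTH33 limit what these arrays resolve.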
